A study of Mus musculus with 18 samples.

Results

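The change in gene expression from myoblasts to myotubes was compared between a pair of edited C2C12 lines, described by the labels as a Dlk1-Dio3 overexpressor (line 2-4) and a Dlk1-Dio3 knockout (line 2-7). C2C12 is a mouse muscle precursor line whose myoblasts leave the cell cycle and fuse into myotubes when serum is lowered. The compared quantity was the difference in response, that is, the log2 fold change from myoblasts to myotubes in the overexpressor line minus the same log2 fold change in the knockout line. It was chosen by sample label alone and used 12 of the 18 libraries of the series, namely replicates A, B and C of myoblasts and of myotubes in each of the 2 lines. The libraries of the vector-treated control population did not enter. Of 55450 gene IDs in the count table, 17272 passed the filter on low counts and were tested.

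Both lines had been transfected with pX458, a plasmid that expresses Cas9 and EGFP, carrying guide RNAs in pairs against the regulatory region just upstream of Meg3. EGFP-positive cells were sorted, and each line was grown from a single diluted cell. Both lines thus share the transfection, the sort and the cloning, and deletions had been genotyped by PCR per the labels. Each genotype was therefore represented by 1 clone, so genotype and clone cannot be told apart. Myoblasts were grown to confluence in growth medium, and myotubes were collected on day 3 in low-serum medium. The labels do not say that the replicates came from independent experiments, so the p-values measure only the spread between these cultures or preparations.

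Meg3, Rian and Mirg are long noncoding RNAs of the imprinted Dlk1-Dio3 cluster, and Rtl1 is a protein-coding gene of the same cluster. In differentiating muscle cells, myogenic transcription factors such as MyoD, myogenin and the MEF2 proteins bind the regulatory regions of contractile genes, while cell cycle inhibitors stop division. The products include the sarcomere, the membrane system that couples excitation to calcium release, and the proteins that fuse myoblasts.

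Meg3, which lies just downstream of the targeted region, was examined before any other gene. Meg3 was at 0 counts in all 6 knockout libraries. In the overexpressor line it was at 108, 151 and 145 CPM (the count relative to the scaled library size) in myoblasts A, B and C and at 78, 97.7 and 104 CPM in myotubes. Mirg was also at 0 counts in every knockout library, against 10.3, 11.1 and 11.1 CPM in overexpressor myoblasts and 10.7, 10.6 and 10 CPM in overexpressor myotubes. Rian was at 203, 250 and 222 CPM in overexpressor myoblasts and at 123, 140 and 185 CPM in their myotubes, while no knockout library exceeded 0.0688 CPM. These levels bear on the knockout label, while the overexpressor label cannot be examined without the control libraries. A response of the knockout line could not be measured for these 3 genes, so no difference in response is given for them. Rtl1 was low throughout, at 0.0604, 0.109 and 0.0467 CPM in overexpressor myoblasts, 0.0597, 0.0378 and 0.028 CPM in overexpressor myotubes, 0.13, 0.257 and 0.107 CPM in knockout myoblasts and 0.705, 0.573 and 0.653 CPM in knockout myotubes. Its difference in response was -2.71 ± 0.72 (SE, log2, adjusted p = 0.00959). The overexpressor levels of Rtl1 lay about the level of 3 counts in a library at both stages. The response of that line was thus barely measurable, and the size of the difference is imprecise. Other annotated genes overlap all 4 of these loci, and whether counting used strand is not given in the sources used here. The same holds for Ache, Adam8, Casq1, Ccdc3, Cd9, Cdc25b, Cdkn1a, Ckm, Col15a1, Col4a1, Col4a2, Cox6a2, Eva1a, Ezh2, Fst, Irf9, Klhl13, Mb, Mef2a, Mtf2, Pkm, Plin4, Prg4, Rapsn, Rb1 and Svep1, which other annotated genes overlap.

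Library totals ran from 41544358 to 79140702 counts, and overexpressor myotubes were the most deeply sequenced group (72885491 ± 6062831 counts, SD, n = 3). A count of 0 allows up to 3 counts in a library, between 0.0378 and 0.07 CPM, and these limits cover counting error only. The size of a difference is imprecise where a group lay near these limits, as for Actn2, Ankrd2, Col15a1, Cox6a2, Dsg3, Pgm5, Sprr1a and Svep1. On the first principal component of the 500 most variable genes, which held 72% of the variance, the 4 groups did not overlap. Overexpressor myotube replicate C stood apart from A and B, with a chi-square per degree of freedom over genes of 108 and 103 against 21 between A and B. Overexpressor myoblast replicate B differed from A and C by 34.1 and 30.2, against 7.86 between A and C. Knockout myotubes A and C also differed more than other pairs of their group (50.4, against 19.3 and 22). Genes whose call rests on 1 of these libraries are given with and without it. Myotube markers separated the stages within each line: the 12 listed genes summed to 1450 to 1900 CPM in overexpressor myoblasts and 29800 to 30800 CPM in overexpressor myotubes, and to 11500 to 14500 CPM in knockout myoblasts and 37600 to 44400 CPM in knockout myotubes.

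The lines differed in their response at 7532 of the 17272 genes (43.6%; edgeR quasi-likelihood test, Benjamini-Hochberg adjusted p under 0.05). The response of the overexpressor was higher at 3763 genes (21.8%) and lower at 3769 (21.8%). With library sizes scaled to total counts in place of TMM factors, 4638 were higher and 2924 lower, because the median difference over all genes then moved from 0.054 to 0.17 on the log2 scale. Of the calls, 3033 were at least 2-fold (1993 higher and 1040 lower) and 1099 at least 4-fold. Within the lines, 10710 genes (62.0%) responded in the overexpressor and 11210 (64.9%) in the knockout. Between the lines, 8867 genes (51.3%) differed in myoblasts and 10118 (58.6%) in myotubes. The order of these 2 counts turned over without overexpressor myotube replicate C, with 9590 in myoblasts and 8800 in myotubes. It also turned over without knockout myotube replicate B (8663 and 8559) or C (9023 and 8470). The 2 responses share no library, and across all tested genes they correlated at a Pearson r of 0.68, given as a description since genes are not independent.

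**Figure D1:**
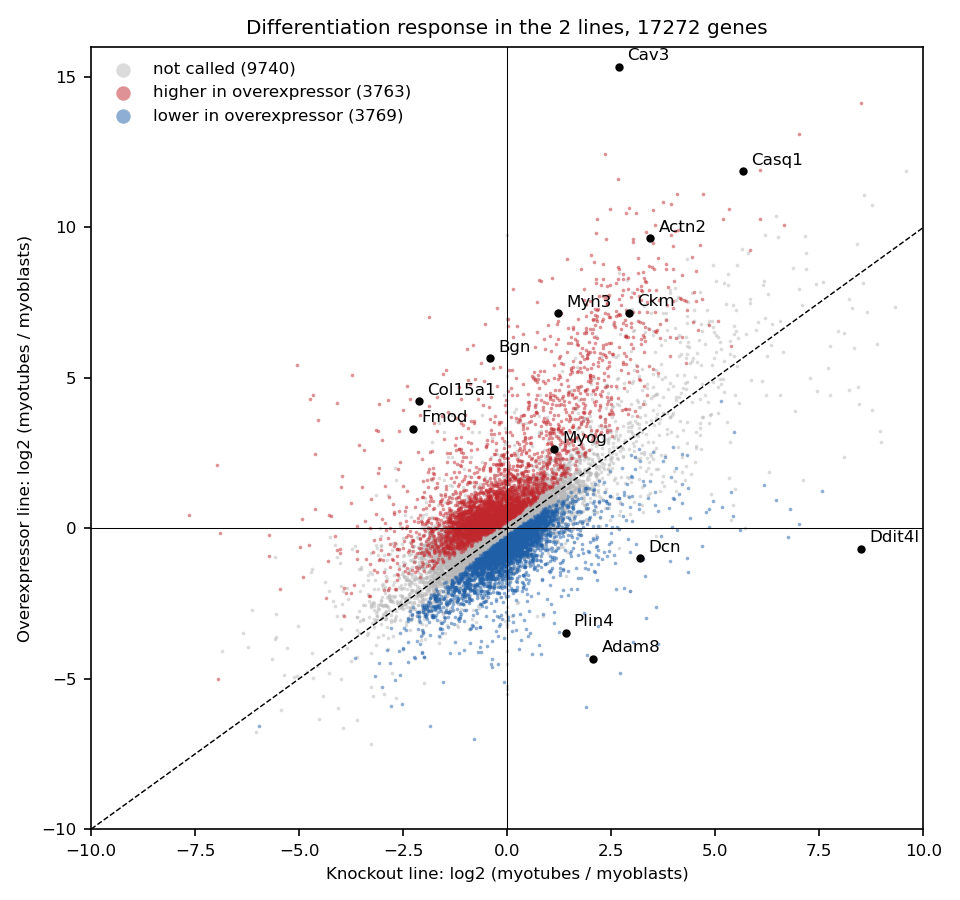
Each point is 1 of the 17272 genes tested, with its log2 fold change from myoblasts to myotubes in the knockout line on the x axis and in the overexpressor line on the y axis. Red and blue points (3763 and 3769 genes) passed the test of the difference and lie above and below the dashed line of equal response, black points are named genes, and 1 gene lies outside the axes.

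Responses in opposed directions, each passing the test of its line, were the smaller part of the calls. Which genes rose or fell within a line depends on the scaling of the libraries. In the knockout 5139 rose and 6071 fell with TMM factors, as used here. With library totals 3864 rose and 7493 fell, and with DESeq2 size factors 5933 rose and 5188 fell. Among the 3763 higher genes, 1119 fell in the knockout and were not called in the overexpressor, 981 rose in both lines, 918 rose in the overexpressor and were not called in the knockout, and 283 fell in both. A further 400 (10.6%) rose in the overexpressor and fell in the knockout. Among the 3769 lower genes, 1111 fell in the overexpressor and were not called in the knockout, 1066 fell in both, 743 rose in the knockout and were not called in the overexpressor, and 291 rose in both. Here 506 (13.4%) fell in the overexpressor and rose in the knockout. The fold change was larger in the overexpressor for 4658 of the 7532 called genes (61.8%). Over these called genes the median absolute log2 response was 0.68 in the overexpressor and 0.55 in the knockout. Over all 17272 tested genes the 2 medians were nearly equal, at 0.58 and 0.57.

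The gap between the lines was smaller in myotubes than in myoblasts for 4189 of the 7532 called genes (55.6%). Over these called genes the median absolute log2 gap was 0.52 in myoblasts and 0.47 in myotubes. Over all 17272 tested genes it was 0.43 in myoblasts and 0.47 in myotubes, so the narrowing did not extend to all genes. Of the higher genes, 1017 were above in knockout myoblasts and did not differ by the test in myotubes, 528 crossed to being higher in overexpressor myotubes, and 1328 differed in myotubes but not by the test in myoblasts. Of the lower genes, 1183 were above in overexpressor myoblasts and did not pass in myotubes, 651 crossed to being higher in knockout myotubes, and 1018 passed in myotubes alone. A p-value that missed the threshold does not show that levels were equal.

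Sarcomere genes carried the largest group differences. Of 23 tested genes of the thick filament and M-band, 20 were higher and 0 lower (87.0% called, beside 43.6% of all genes). Their median difference was 4.11, against 0.054 over all genes. The median response was 7.05 in the overexpressor and 2.21 in the knockout. At 3 members a group stood at the floor of 3 counts, and the median was 3.9 with these at their bound. The median log2 gap, overexpressor minus knockout, was -4.76 in myoblasts and -0.17 in myotubes. By the test, 20 of the 23 genes were lower in overexpressor than in knockout myoblasts, and 10 in myotubes.

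Myh3, the embryonic myosin heavy chain, was at 37.5, 33.1 and 58.2 CPM in overexpressor myoblasts A, B and C and at 6140, 5760 and 6510 CPM in their myotubes. In the knockout it went from 2810, 3720 and 3140 CPM to 7350, 7480 and 7730 CPM. The difference in response was 5.94 ± 0.26 (adjusted p = 2.08e-08). Every knockout myoblast library lay above every overexpressor myoblast library, and the myotube gap of -0.29 did not pass (adjusted p = 0.161). Myh4, a fast adult myosin heavy chain, rose from 0.0604, 0 and 0.14 CPM to 579, 524 and 677 CPM in the overexpressor, and from 4.36, 7.57 and 3.62 CPM to 647, 629 and 733 CPM in the knockout. The myotube ranges of the 2 lines overlapped for Myh4, while the myoblast ranges did not. The difference for Myh4 was 6.10 ± 0.60 (adjusted p = 1.98e-05). Its size is imprecise, since the overexpressor myoblast levels lay about 0.07 CPM, the highest limit for 3 counts. Mylk2, a myosin light chain kinase, was one of 3 members not called (-0.38, adjusted p = 0.148).

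Thin filament and Z-disc genes behaved similarly, with 29 of 33 higher and 2 lower (93.9% called, beside 43.6% of all genes). Their median difference was 3.57 (3.31 with members at the floor at their bound). Actn2, the Z-disc protein alpha-actinin 2, was at 0.302, 0.131 and 0.28 CPM in overexpressor myoblasts and 224, 151 and 203 CPM in overexpressor myotubes. Knockout myoblasts had 39.9, 60.4 and 41.9 CPM and knockout myotubes 458, 489 and 601 CPM. The difference was 6.20 ± 0.39 (adjusted p = 6.42e-07), and both myoblast and myotube levels were lower in every overexpressor library than in any knockout library. Acta1, skeletal alpha-actin, differed by 4.05, with a response of 5.94 in the overexpressor and 1.89 in the knockout. For Ttn, which encodes the giant spring protein titin, the responses were 4.10 and 0.51.

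The 2 members called lower were Tpm3, a slow-muscle and cytoskeletal tropomyosin, and Myoz1, a Z-disc protein that binds calcineurin. Tpm3 was at 293, 275 and 282 CPM in overexpressor myoblasts and 251, 236 and 258 CPM in overexpressor myotubes, and rose in the knockout from 185, 178 and 180 CPM to 345, 353 and 365 CPM. Its difference was -1.16 ± 0.08 (adjusted p = 3.83e-07), and the order of the lines turned over between the stages. Myoz1 differed by -0.89 (adjusted p = 0.0471), and the call was lost on leaving out any one library other than knockout myoblasts A and B (adjusted p = 0.125 without knockout myoblast replicate C).

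**Figure D2:**
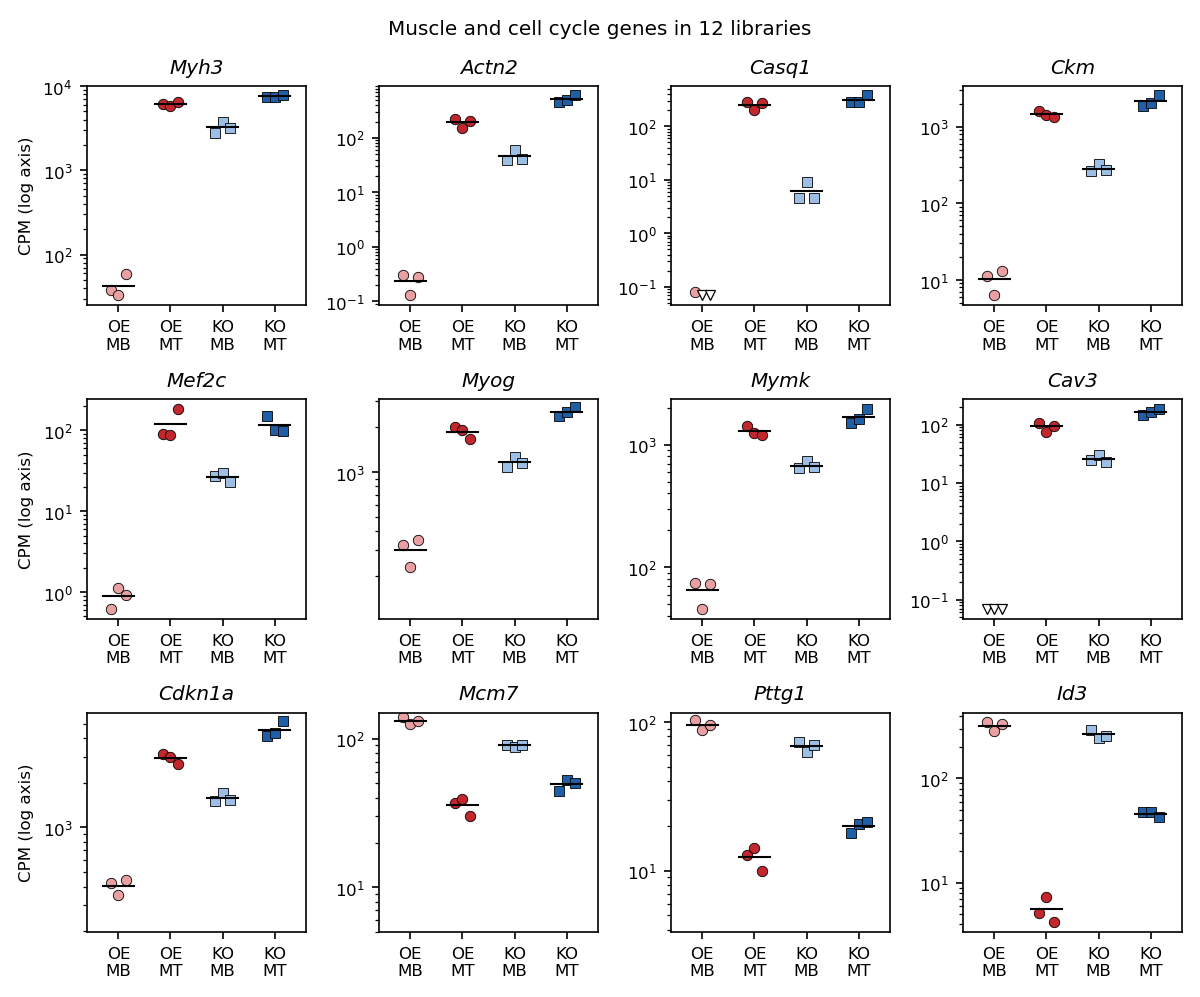
Levels in CPM (log axes) of 12 genes in the 12 libraries: circles are overexpressor (OE) and squares knockout (KO) replicates, MB myoblasts and MT myotubes, and bars group means; open triangles mark libraries below 0.07 CPM, the highest limit for 3 counts, and are drawn at that value. The muscle genes of the upper panels are far lower in overexpressor than in knockout myoblasts, and lie closer together in myotubes.

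Genes of excitation-contraction coupling, which links the action potential to calcium release from the sarcoplasmic reticulum, included 22 higher and 1 lower of 26 tested. The share called was 88.5%, beside 43.6% of all genes, with a median difference of 1.90 (1.73 at the bound). Casq1, the calcium-binding protein of the fast-fibre sarcoplasmic reticulum, rose from 0.0805, 0.0654 and 0.0467 CPM to 281, 203 and 270 CPM in the overexpressor. In the knockout it went from 4.58, 9.22 and 4.67 CPM to 284, 283 and 379 CPM. The difference was 6.19 ± 0.61 (adjusted p = 1.93e-05), and the myotube gap of -0.33 did not pass (adjusted p = 0.235). Overexpressor myoblast levels of Casq1 lay about 0.07 CPM, the highest limit for 3 counts, so the size of its difference is imprecise. Cacng6, a calcium channel subunit, was at 0 counts in all overexpressor myoblast libraries and at 0.508, 0.78 and 0.783 CPM in their myotubes, a rise of at least 9.86-fold. It went from 2.1, 3.14 and 2.36 CPM to 15.3, 14.6 and 18.5 CPM in the knockout, so the difference was at least 0.63. Atp2a2, the calcium pump of slow muscle and of most other cells, was called in neither direction (-0.056, adjusted p = 0.625).

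At the neuromuscular junction, 9 of 14 genes were higher and 2 lower (78.6% called, beside 43.6% of all genes), with a median difference of 1.14. Ache, which encodes acetylcholinesterase, was at 0.0604, 0.0218 and 0.0933 CPM in overexpressor myoblasts and 11.9, 6.97 and 9.68 CPM in their myotubes, against 2.04, 2.75 and 2.04 CPM and 33.8, 31 and 43.2 CPM in the knockout (difference 3.33 ± 0.51, adjusted p = 0.000299). These overexpressor myoblast levels of Ache also lay about the limit for 3 counts. Chrna1, the muscle acetylcholine receptor alpha subunit, responded by 0.98 and 0.94 and was not called. Neither lower call, Rapsn (-0.50) or Agrn (-0.30), held with library totals, or without any one of overexpressor myoblasts A or C, overexpressor myotube C, the knockout myoblast libraries or knockout myotube C. The highest adjusted p on leaving out 1 library was 0.0802 for Rapsn and 0.164 for Agrn. In the dystrophin-glycoprotein complex, which ties the cytoskeleton to the matrix, 6 of 12 genes were higher and 1 lower (58.3% called, beside 43.6% of all genes). The syntrophin Sntb1 rose from 10.8, 13.7 and 12.9 CPM to 54.7, 69.8 and 94.3 CPM in the overexpressor and fell from 67.5, 76.3 and 68.9 CPM to 40.4, 32.4 and 25.9 CPM in the knockout (3.66 ± 0.29, adjusted p = 3.09e-06).

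Among 24 genes of muscle energy supply, 11 were higher and 4 lower (62.5% called, beside 43.6% of all genes). Their median difference was 0.48 (0.33 at the bound). Mb, the oxygen store myoglobin, was at 7.09, 4.23 and 7.68 CPM in overexpressor myoblasts and at 926, 765 and 842 CPM in their myotubes, and at 116, 151 and 114 CPM and 453, 433 and 534 CPM in the knockout. Its order turned over: every overexpressor myotube library lay above every knockout one, after the opposite in myoblasts (5.16 ± 0.27, adjusted p = 1.65e-07). Ckm, muscle creatine kinase, went from 11.3, 6.36 and 13 CPM to 1620, 1440 and 1350 CPM in the overexpressor and from 262, 323 and 269 CPM to 1880, 2070 and 2560 CPM in the knockout (4.24 ± 0.31, adjusted p = 1.93e-06). Pkm, the pyruvate kinase whose M2 form is typical of dividing cells, fell from 2990, 2580 and 2870 CPM to 1220, 1090 and 1030 CPM in the overexpressor, while the knockout had 1740, 1730 and 1740 CPM and then 1390, 1530 and 1800 CPM (-1.19 ± 0.14, adjusted p = 3.2e-05). The counts do not separate the 2 isoforms of Pkm.

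Upstream of the contractile genes, the 15 tested myogenic transcription factors split, with 6 higher and 4 lower (66.7% called, beside 43.6% of all genes). Their median difference was -0.035 (0.086 with library totals). Mef2c, a partner of the MyoD family, was at 0.624, 1.11 and 0.91 CPM in overexpressor myoblasts and at 90.3, 88.2 and 184 CPM in their myotubes, against 27.1, 29.8 and 23.2 CPM and 149, 100 and 99.2 CPM in the knockout. The difference was 4.98 ± 0.47 (adjusted p = 1.37e-05), and the myotube ranges overlapped. Myog, which encodes myogenin, rose from 324, 228 and 347 CPM to 2020, 1910 and 1670 CPM in the overexpressor and from 1090, 1260 and 1150 CPM to 2380, 2540 and 2740 CPM in the knockout (1.51 ± 0.19, adjusted p = 5.72e-05). Mef2a differed by 1.82 (adjusted p = 0.000911); its overexpressor myotube values were 244, 250 and 437 CPM, with replicate C the highest, and the call held without that library.

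Myod1, which encodes the determination factor MyoD, went the other way by a smaller amount. It was at 367, 298 and 353 CPM in overexpressor myoblasts and 301, 266 and 235 CPM in their myotubes, and at 326, 319 and 315 CPM and then 356, 380 and 426 CPM in the knockout (-0.62 ± 0.14, adjusted p = 0.00416). Myf6, a late member of the same family, stayed at 0.378 to 0.741 CPM in the 6 overexpressor libraries and rose in the knockout from 2.47, 2.64 and 2.33 CPM to 11.1, 11.2 and 10.7 CPM (-2.42 ± 0.27, adjusted p = 2.3e-05). Pax7, a marker of satellite cells, fell from 31.9, 30.4 and 31.9 CPM to 4.84, 3.96 and 3.78 CPM in the overexpressor and from 18.6, 18.5 and 17.8 CPM to 11.9, 14.5 and 11.8 CPM in the knockout (-2.38 ± 0.15, adjusted p = 2.15e-07). Myf5, an early determination factor, differed by -1.56 (adjusted p = 0.000777). Of the 11 tested markers of reserve and satellite cells, 5 were lower and 3 higher (72.7% called, beside 43.6% of all genes). Their differences ran from -2.38 (Pax7) to 3.07, with a median of 0.09, so the list as a whole did not shift. It summed to 1140 to 1190 CPM in overexpressor myoblasts, 1030 to 1130 CPM in overexpressor myotubes, 903 to 908 CPM in knockout myoblasts and 752 to 842 CPM in knockout myotubes. In bulk RNA, fewer cells of a type and less RNA per cell cannot be told apart, so the part of unfused cells in these values was not tested.

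Cell fusion and membrane repair genes were called in either direction, 8 higher and 6 lower of 16 (87.5% called, beside 43.6% of all genes). Cav3, the muscle caveolin, had the largest fitted difference among the named genes. It was at 0 counts in the 3 overexpressor myoblast libraries and at 107, 75 and 96.1 CPM in their myotubes, at least 1320-fold higher, and in the knockout it went from 24.2, 29.5 and 23.2 CPM to 146, 162 and 185 CPM. With the floor of 3 counts in place of 0, the difference was at least 7.69 on the log2 scale, since the fitted 12.67 depends on the prior count. Mymk, the fusion protein myomaker, rose from 74.6, 46.2 and 73.7 CPM to 1430, 1250 and 1200 CPM in the overexpressor and from 641, 733 and 652 CPM to 1510, 1610 and 1950 CPM in the knockout (2.99 ± 0.24, adjusted p = 2.31e-06). Its fusion partner myomixer (Mymx) had responses of 4.34 and 2.66. The lowest members were Ehd1, an endocytic recycling protein (-1.24, adjusted p = 4.86e-05), and Cd9, a tetraspanin (-1.19, adjusted p = 3.2e-07).

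**Figure D3:**
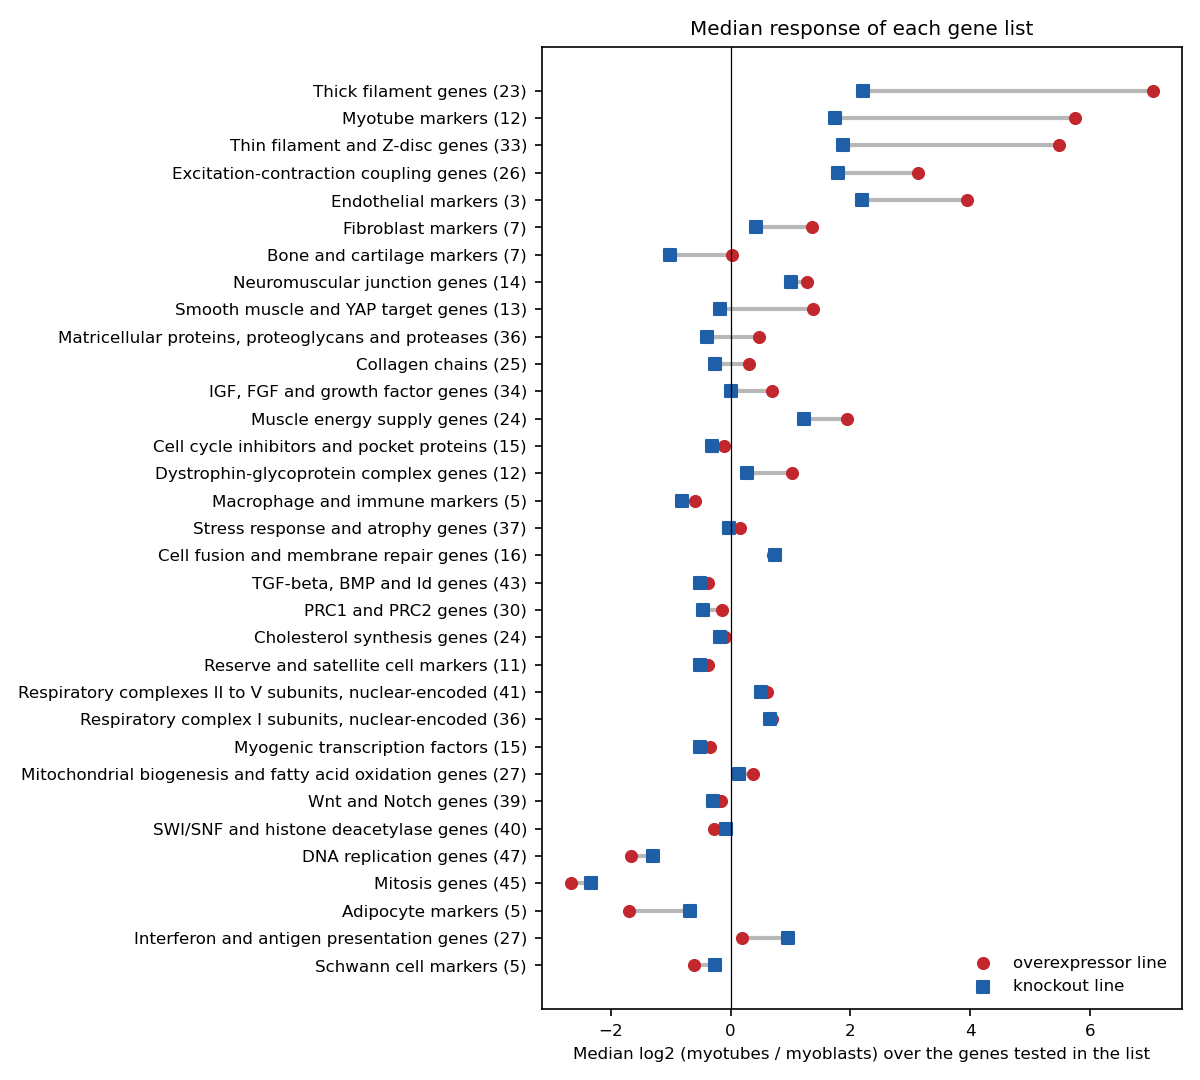
Median log2 fold change from myoblasts to myotubes over the tested genes of each list (number in brackets), in the overexpressor (circles) and in the knockout (squares). Contractile lists lie far to the right in the overexpressor (7.05 for thick filament genes, against 2.21 in the knockout), while the respiratory chain lists have nearly the same median in both lines (0.69 and 0.66 for complex I).

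The promoters of the contractile genes were read from the RefSeq promoter table (assembly GRCm38.p6), as the 250 bases before the start that table gives. The motif CAGCTG, an E-box form that MyoD and myogenin bind, reads the same on both strands. It was present in 25 of the 59 genes with a promoter in the table (42.4%), out of 82 tested on the 3 contractile lists, against 12.4% of 11196 tested genes and 13.0% of all 32851 windows. The MEF2 consensus, of 10 bases and searched on both strands, was present in 13 of the 59 (22.0%), against 1.86% of tested genes and 2.92% of all windows. Among genes called higher by at least 4-fold, 21.3% of 559 promoters held CAGCTG and 6.8% the MEF2 consensus, and among those called lower by at least 4-fold, 17.0% and 1.1% of 182. A match is a description of letters in this window and not a bound site. The set called higher by at least 4-fold includes contractile genes. A link of either motif to the difference between the lines was not tested.

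The promoters of the 4 contractile genes that held both motifs are shown with those of Casq1 and Cav3, which lead their lists and held CAGCTG alone, and of Adam8, among the lowest differences, which held neither. Contractile genes with large differences also held neither motif, among them Actn2 (6.20), Myh3 (5.94) and Myh7 (5.74). The promoters shown were thus picked by their motifs and do not represent the lists. Capitals mark CAGCTG and the MEF2 consensus, and all are written 5′ to 3′ on the gene's strand. For Myh4 and Casq1 the window's start site was not found in the GENCODE transcripts, so their windows may not adjoin the start used in these cells. The differences in response were 6.10 for Myh4, 4.77 for Myoz2 (a Z-disc protein), 3.57 for Klhl41 (a sarcomere assembly protein) and 3.84 for Mylk4 (a myosin light chain kinase).
Myh4 (chr11:67237562-67237811, plus strand): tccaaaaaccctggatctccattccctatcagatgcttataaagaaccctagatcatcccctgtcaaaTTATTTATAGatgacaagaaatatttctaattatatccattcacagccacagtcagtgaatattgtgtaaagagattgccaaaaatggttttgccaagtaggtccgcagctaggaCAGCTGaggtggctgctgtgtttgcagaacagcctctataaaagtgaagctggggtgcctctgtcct
Myoz2 (chr3:123034988-123035237, minus strand): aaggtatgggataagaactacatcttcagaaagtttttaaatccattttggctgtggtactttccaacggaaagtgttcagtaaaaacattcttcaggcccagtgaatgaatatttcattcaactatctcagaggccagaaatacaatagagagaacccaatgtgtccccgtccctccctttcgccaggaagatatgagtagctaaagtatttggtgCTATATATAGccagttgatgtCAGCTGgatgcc
Klhl41 (chr2:69669870-69670119, plus strand): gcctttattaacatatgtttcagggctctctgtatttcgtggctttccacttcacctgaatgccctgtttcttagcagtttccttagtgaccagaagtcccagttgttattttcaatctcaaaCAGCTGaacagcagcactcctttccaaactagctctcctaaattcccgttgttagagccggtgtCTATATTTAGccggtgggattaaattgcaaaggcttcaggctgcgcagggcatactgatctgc
Mylk4 (chr13:32783965-32784214, minus strand): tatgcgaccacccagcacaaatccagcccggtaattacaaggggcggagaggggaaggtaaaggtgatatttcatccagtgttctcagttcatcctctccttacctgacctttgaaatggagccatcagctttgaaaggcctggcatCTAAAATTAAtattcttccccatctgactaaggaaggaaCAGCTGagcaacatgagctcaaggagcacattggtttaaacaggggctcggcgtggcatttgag
Casq1 (chr1:172219896-172220145, minus strand): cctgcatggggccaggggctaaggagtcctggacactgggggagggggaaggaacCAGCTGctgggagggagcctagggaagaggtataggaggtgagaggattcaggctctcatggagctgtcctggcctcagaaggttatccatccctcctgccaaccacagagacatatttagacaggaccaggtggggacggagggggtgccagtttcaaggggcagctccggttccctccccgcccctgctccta
Cav3 (chr6:112459255-112459504, plus strand): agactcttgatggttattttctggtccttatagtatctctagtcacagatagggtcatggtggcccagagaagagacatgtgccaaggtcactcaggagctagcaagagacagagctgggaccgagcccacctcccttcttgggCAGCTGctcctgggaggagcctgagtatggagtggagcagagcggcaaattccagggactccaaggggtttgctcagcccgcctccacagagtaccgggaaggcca
Adam8 (chr7:139992563-139992812, minus strand): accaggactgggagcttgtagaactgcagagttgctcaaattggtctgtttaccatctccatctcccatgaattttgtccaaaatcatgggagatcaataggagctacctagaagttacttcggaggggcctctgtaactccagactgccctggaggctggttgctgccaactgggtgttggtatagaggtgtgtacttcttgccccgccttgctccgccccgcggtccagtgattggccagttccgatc

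Cell cycle genes fell in both lines, and the difference in response was lower in about as many of them as did not pass. Of 47 DNA replication genes, 46 fell in each line, by a median of 1.67 in the overexpressor and 1.29 in the knockout (log2). The difference was lower for 24 and higher for 2 (55.3% called, beside 43.6% of all genes), with a median of -0.33. With library totals these counts were 17 and 4, and the median was -0.21. Mcm7, a subunit of the replicative helicase, fell from 139, 125 and 132 CPM to 37.1, 39.3 and 30.4 CPM in the overexpressor and from 91.1, 87.8 and 91.2 CPM to 44.7, 52.9 and 50.2 CPM in the knockout (-1.02 ± 0.13, adjusted p = 7.33e-05). Mcm7 overlaps other genes on both strands. The order of the lines turned over, with every overexpressor library above the knockout in myoblasts and below it in myotubes. Pold1, a catalytic subunit of DNA polymerase delta, differed by -1.11 (adjusted p = 6.08e-05).

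All 45 mitosis genes fell in both lines, by a median of 2.67 in the overexpressor and 2.33 in the knockout. In the difference 22 were lower and 0 higher (median -0.36, and -0.24 with library totals). The 48.9% called lies near the 43.6% over all genes, of which 21.8% were higher and 21.8% lower. Pttg1, the separase inhibitor securin, fell from 103, 87.9 and 95.2 CPM to 12.7, 14.2 and 9.89 CPM in the overexpressor and from 73.1, 62.8 and 70.4 CPM to 17.9, 20.7 and 21.1 CPM in the knockout (-1.17 ± 0.17, adjusted p = 0.000178). Cdc25b, a phosphatase that activates mitotic cyclin-dependent kinase, had the lowest value of the list (-1.90, adjusted p = 1.4e-07). It was at 321, 282 and 323 CPM in overexpressor myoblasts and 86.6, 78.7 and 84.2 CPM in knockout myoblasts, and the myotube ranges of the lines overlapped. Widely used proliferation markers were not called: Mki67 had responses of -2.66 and -3.10, and Top2a of -2.39 and -2.43.

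Among 15 cell cycle inhibitors and pocket proteins, 5 were higher and 2 lower, and the 46.7% called lies near the 43.6% over all genes. Cdkn1a, the inhibitor p21, rose from 420, 352 and 442 CPM to 3100, 3000 and 2690 CPM in the overexpressor and from 1500, 1700 and 1520 CPM to 4120, 4350 and 5190 CPM in the knockout (1.33 ± 0.15, adjusted p = 2.74e-05). Its level was lower in every overexpressor library than in any knockout library of the same stage. Rb1, the retinoblastoma protein, had 101, 101 and 179 CPM in overexpressor myotubes, with replicate C again the highest, and differed by 1.65 (adjusted p = 0.00143).

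Subunits of the respiratory chain, which makes ATP in mitochondria, rose in both lines. Of 36 complex I subunits, 35 rose in each line, with medians of 0.69 and 0.66. Of these 36, 7 (19.4%) were called in the difference, all higher, beside 43.6% of all genes, and the median difference was 0.065. Leaving out knockout myotube replicate A gave 4 higher and 6 lower, leaving out overexpressor myoblast replicate B 6 and 5, leaving out overexpressor myotube replicate A 5 and 4, and leaving out knockout myoblast replicate C 4 and 0. Ndufs4, an accessory subunit, had the largest value, going from 49.2, 46.3 and 51.8 CPM to 137, 122 and 150 CPM in the overexpressor and from 60.2, 66.1 and 62.7 CPM to 101, 99.4 and 102 CPM in the knockout (0.80 ± 0.11, adjusted p = 0.000121).

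In complexes II to V, 35 of 41 subunits rose in each line, and 11 (26.8%) were called, 10 of them higher. With library totals 17 were higher and 0 lower, and without knockout myotube replicate A 9 and 4. Cox6a2 and Cox8b, the muscle-type subunits of cytochrome oxidase, had the highest differences of the list. Cox6a2 rose from 0.121, 0.0436 and 0.303 CPM to 83.8, 75.6 and 76.6 CPM in the overexpressor and from 12, 14.1 and 10.8 CPM to 97.2, 103 and 127 CPM in the knockout (5.84 ± 0.35, adjusted p = 2.54e-07). Cox8b differed by 3.34 (adjusted p = 0.000106). Of 27 genes of mitochondrial biogenesis and fatty acid oxidation, 9 were higher and 4 lower, and 2 lower with library totals or without any one of overexpressor myoblasts A or C, overexpressor myotube C or the knockout myoblast libraries. The 48.1% called lies near the 43.6% over all genes. Ppargc1a, which encodes the coactivator PGC-1 alpha, was at 0.282, 0.479 and 0.163 CPM in overexpressor myoblasts and 0.806, 0.315 and 1.01 CPM in their myotubes, and at 7.18, 7.52 and 6.7 CPM and 9.64, 8 and 5.9 CPM in the knockout. Its level separated the lines at both stages, but the difference in response did not pass (1.03 ± 0.55, adjusted p = 0.146). Cd36, a fatty acid transporter, had overexpressor myotube values of 54.7, 44.5 and 143 CPM, with replicate C far above the others, and differed by 3.77 (adjusted p = 0.00033).

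Matrix genes were called in both directions, more often higher. Of 25 collagen chains, 16 were higher and 3 lower (76.0% called, beside 43.6% of all genes, median 0.58). Of 36 matricellular proteins, proteoglycans and proteases, 20 were higher and 9 lower (80.6% called, median 0.71, and 0.55 at the bound). Col1a1, the main chain of collagen I, rose in both lines, from 10.5, 9.13 and 10.2 CPM to 483, 305 and 405 CPM in the overexpressor and from 373, 575 and 347 CPM to 1300, 1540 and 1510 CPM in the knockout (3.58 ± 0.29, adjusted p = 5.07e-06). Bgn, the small proteoglycan biglycan, rose from 12.4, 9.83 and 13.7 CPM to 758, 442 and 615 CPM in the overexpressor and fell slightly in the knockout, from 544, 573 and 518 CPM to 398, 427 and 401 CPM (6.08 ± 0.25, adjusted p = 2.02e-08). Dcn, the related proteoglycan decorin, went the other way, from 13.2, 12.2 and 13.4 CPM to 5.9, 5.02 and 8.8 CPM in the overexpressor and from 5.08, 5.41 and 5.51 CPM to 50.9, 51.5 and 43.1 CPM in the knockout (-4.16 ± 0.24, adjusted p = 7.62e-08). The basement membrane chains Col4a1 (-0.72) and Col4a2 (-0.63) fell in the overexpressor alone by the test of each line.

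Smooth muscle and YAP target genes were higher at 9 of 13 and lower at 0 (69.2% called, beside 43.6% of all genes, median 0.92). The list summed to 4310 to 4960 CPM in overexpressor myoblasts, 11900 to 13700 CPM in overexpressor myotubes, 12100 to 12900 CPM in knockout myoblasts and 16300 to 19800 CPM in knockout myotubes. By the test, 11 of the 13 rose and 2 fell in the overexpressor (median response 1.37). In the knockout 5 rose and 7 fell (median response -0.18), so the sum there was carried by members of high level. Acta2, smooth muscle actin, had responses of 1.82 and 0.062. Markers of fibroblasts (4 higher, 1 lower of 7), bone and cartilage (4 and 1 of 7), adipocytes (0 and 3 of 5), endothelium (2 and 0 of 3), macrophages (0 and 1 of 5) and Schwann cells (0 and 1 of 5) were few. Endothelial, macrophage and Schwann lists summed to at most 6.09, 14 and 6.45 CPM in any library, fibroblast markers to at most 70.5 CPM, adipocyte markers to 79.8 CPM and bone and cartilage markers to 235 CPM. The defining genes at the floor in all 12 libraries numbered 2 of 9 for fibroblasts, 4 of 11 for adipocytes, 3 of 11 for bone and cartilage, 2 of 8 for endothelium, 2 of 9 for macrophages and 1 of 6 for Schwann cells. Their part in the results was not tested.

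Among secreted growth factors and their receptors, 19 of 34 IGF, FGF and related genes were higher and 8 lower (median 0.53). The share called was 79.4%, beside 43.6% of all genes. Fgf21, a hormone released by stressed muscle and liver, rose from 1.09, 0.545 and 1 CPM to 95.5, 95.3 and 81.4 CPM in the overexpressor and from 11.2, 16.6 and 11.9 CPM to 56.3, 64.7 and 66 CPM in the knockout (4.45 ± 0.28, adjusted p = 2.86e-07). Igf1 was at or under 3 counts in overexpressor myoblasts and at 1.61, 1.16 and 3.15 CPM in their myotubes, at least 28.2-fold higher, while the knockout kept 6.05, 6.44 and 6.48 CPM and then 8.65, 6.02 and 6.38 CPM. The difference for Igf1 was at least 4.67. Igfbp2, an IGF binding protein, fell from 2410, 1950 and 2320 CPM to 128, 118 and 98.8 CPM in the overexpressor and from 538, 488 and 549 CPM to 113, 103 and 118 CPM in the knockout (-2.04 ± 0.15, adjusted p = 6.5e-07). Igfbp2 myotube ranges overlapped between the lines.

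In the TGF-beta and BMP pathway, 13 of 43 genes were higher and 9 lower; the 51.2% called lies near the 43.6% over all genes. Id3, an inhibitor of MyoD-family DNA binding, fell from 344, 286 and 329 CPM to 5.15, 7.36 and 4.21 CPM in the overexpressor and from 293, 245 and 258 CPM to 47.8, 47.2 and 42.8 CPM in the knockout (-3.31 ± 0.23, adjusted p = 7.79e-07). The lines did not differ by the test in myoblasts for Id3 (adjusted p = 0.164), and the myotube groups did not overlap. Fst, the activin and myostatin antagonist follistatin, went from 4.17, 4.18 and 6.18 CPM to 145, 147 and 176 CPM in the overexpressor and from 91.5, 106 and 91.5 CPM to 248, 228 and 220 CPM in the knockout (3.74 ± 0.19, adjusted p = 3.33e-08). Wnt and Notch genes were called 13 times in each direction out of 39 (66.7% called, beside 43.6% of all genes). The Wnt ligand Wnt9a (2.25) and the Notch ligand Jag1 (2.31) were the highest of these at 5 CPM or more, and the Wnt ligand Wnt10b (-2.82) and the Wnt coreceptor Lrp5 (-1.56) the lowest.

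Of 30 PRC1 and PRC2 genes, which silence genes through histone marks, 8 were higher and 9 lower (56.7% called, beside 43.6% of all genes). Ezh2, the PRC2 methyltransferase, fell in both lines by 1.48 and 1.62 with no called difference (0.14 ± 0.22, adjusted p = 0.632). Mtf2, an accessory PRC2 subunit, was called (1.63, adjusted p = 0.0183), but its overexpressor myotube values were 16.6, 16 and 39.5 CPM and its knockout myotube values 10.9, 7.18 and 6 CPM, and the call was lost without knockout myotube replicate C (adjusted p = 0.0533). Without that library 3 genes of the list were higher and 8 lower, without overexpressor myoblast A or C or knockout myotube B 5 and 8, and without knockout myotube replicate A 12 and 9. Among 40 SWI/SNF and histone deacetylase genes, 6 were higher and 14 lower, also a share near that over all genes, against 11 and 9 with library totals and 10 and 14 without knockout myotube replicate A. Smarcd2, a SWI/SNF subunit, fell from 78, 70.9 and 81.3 CPM to 30.4, 29.2 and 24.8 CPM in the overexpressor and from 72, 69.3 and 70.2 CPM to 47.5, 50.3 and 52.6 CPM in the knockout (-0.96 ± 0.12, adjusted p = 4.67e-05).

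Interferon and antigen presentation genes were lower at 13 of 27 and higher at 1 (51.9% called, beside 43.6% of all genes), with a median of -0.71. In the overexpressor 7 rose and 9 fell, and in the knockout 15 rose and 4 fell. Tapbp, the chaperone tapasin of class I peptide loading, went from 135, 115 and 134 CPM to 109, 109 and 85.8 CPM in the overexpressor and from 80, 87.9 and 77 CPM to 148, 160 and 167 CPM in the knockout (-1.29 ± 0.14, adjusted p = 1.99e-05). Tapbp overlaps other genes on both strands. Irf9, a transcription factor of the interferon response, fell in the overexpressor from 8.98, 8.69 and 9.26 CPM to 5.6, 4.77 and 4.62 CPM and stayed between 7.32 and 7.78 CPM in the knockout libraries (-0.88 ± 0.14, adjusted p = 0.000306). Stress response and atrophy genes (12 higher and 8 lower of 37) and cholesterol synthesis genes (7 and 7 of 24) showed calls in both directions. Their shares called were 54.1% and 58.3%, beside 43.6% of all genes. Ddit4l, a stress-induced inhibitor of mTOR signalling, was the lowest of all named genes: it was at 2.11, 1.87 and 1.96 CPM in overexpressor myoblasts and 1.25, 1.26 and 1.19 CPM in their myotubes, and at 3 counts or fewer in knockout myoblasts, followed by 15, 13.1 and 16.3 CPM, at least 227-fold higher. The difference was therefore at least as low as -8.51.

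**Figure D4:**
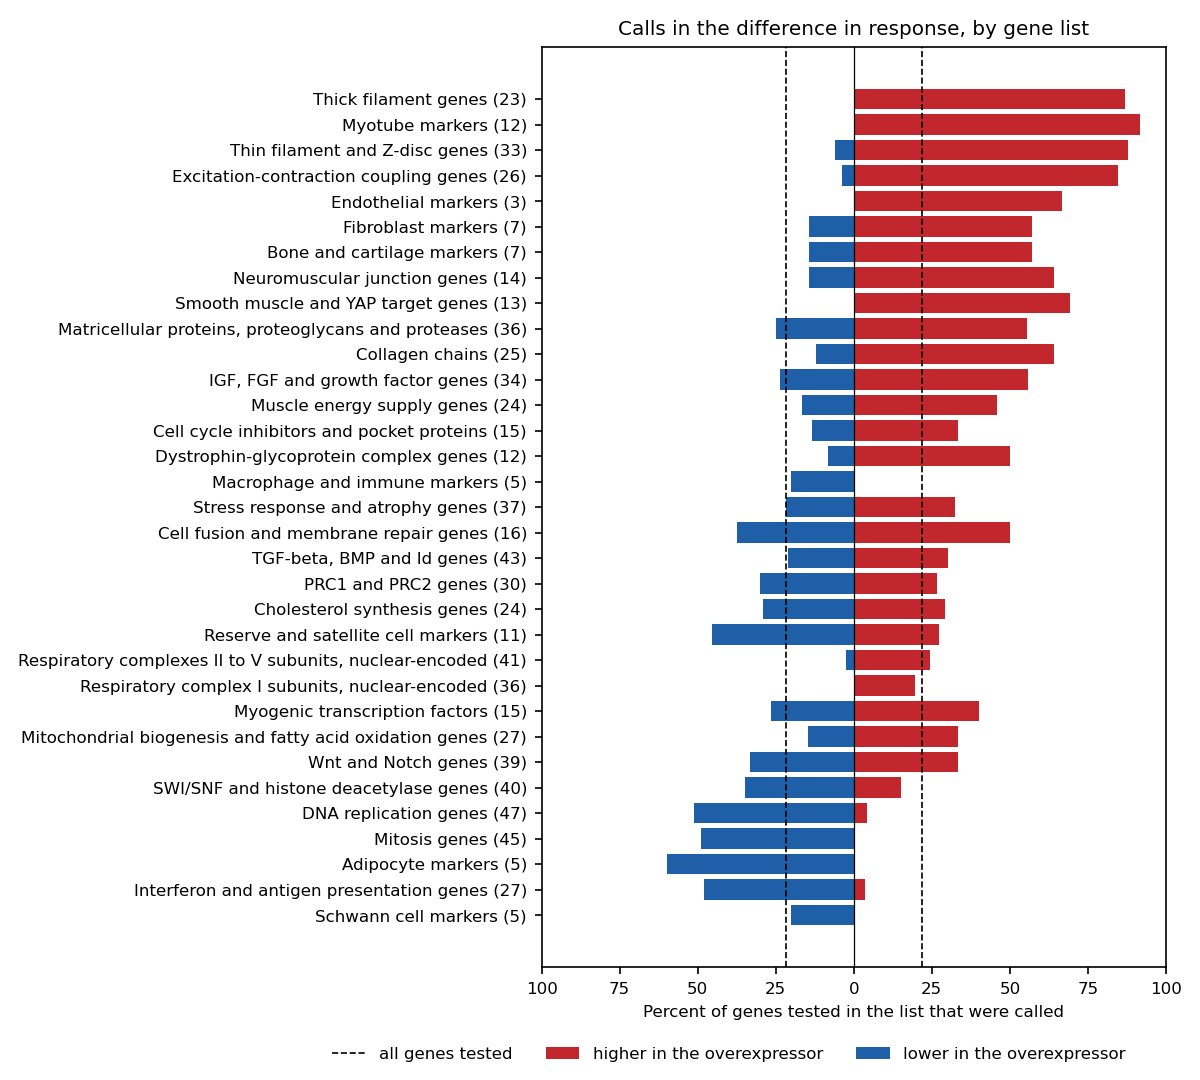
Percent of the tested genes of each list (number in brackets) called higher (red, to the right) or lower (blue, to the left) in the difference in response; dashed lines mark the share over all genes tested (21.8% each way). Contractile lists reach 20 of 23 and 29 of 33 genes to the right, while DNA replication, mitosis and interferon lists extend mainly to the left.

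Of the genes that moved in opposite directions by at least 2-fold in each line, 72 rose in the overexpressor and fell in the knockout, and 39 did the reverse. Col15a1, a basement membrane collagen, rose from 0.0805, 0.131 and 0.14 CPM to 2.09, 2.38 and 2.13 CPM in the overexpressor and fell from 7.07, 6.73 and 6 CPM to 1.32, 1.75 and 1.45 CPM in the knockout (6.35 ± 0.27, adjusted p = 8.43e-09). Fmod, the proteoglycan fibromodulin, rose from 0.564, 0.414 and 0.7 CPM to 7.76, 2.89 and 6 CPM in the overexpressor and fell from 349, 377 and 298 CPM to 72, 70.5 and 69.8 CPM in the knockout (5.58 ± 0.45, adjusted p = 4.23e-06). For Fmod the knockout stayed above the overexpressor in every library of both stages. Col15a1 ended with every overexpressor myotube library above every knockout one.

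In the reverse direction, Adam8, a membrane metalloprotease, fell from 81.3, 76.1 and 83.8 CPM to 3.85, 4.1 and 4.07 CPM in the overexpressor and rose from 3.9, 3.98 and 4.23 CPM to 15.6, 16.3 and 19.1 CPM in the knockout (-6.40 ± 0.13, adjusted p = 3.17e-11). Plin4, a lipid droplet protein, fell from 33, 34 and 32.7 CPM to 2.84, 3.26 and 2.91 CPM in the overexpressor and rose from 1.61, 0.88 and 1.04 CPM to 3.2, 3.24 and 2.76 CPM in the knockout (-4.87 ± 0.23, adjusted p = 1.9e-08). The lines overlapped for Plin4 in myotubes and were widely apart in myoblasts. Sprr1a, a protein of the cornified envelope, differed by -6.31 ± 0.51 (adjusted p = 1.37e-06), from 6.02, 5.23 and 4.95 CPM to 0.582, 0.805 and 0.671 CPM in the overexpressor and from 0, 0.11 and 0.143 CPM to 0.739, 0.96 and 1.07 CPM in the knockout. The size for Sprr1a is imprecise, since its knockout myoblast levels lay near the limit for 3 counts, with 0 in replicate A.

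**Figure D5:**
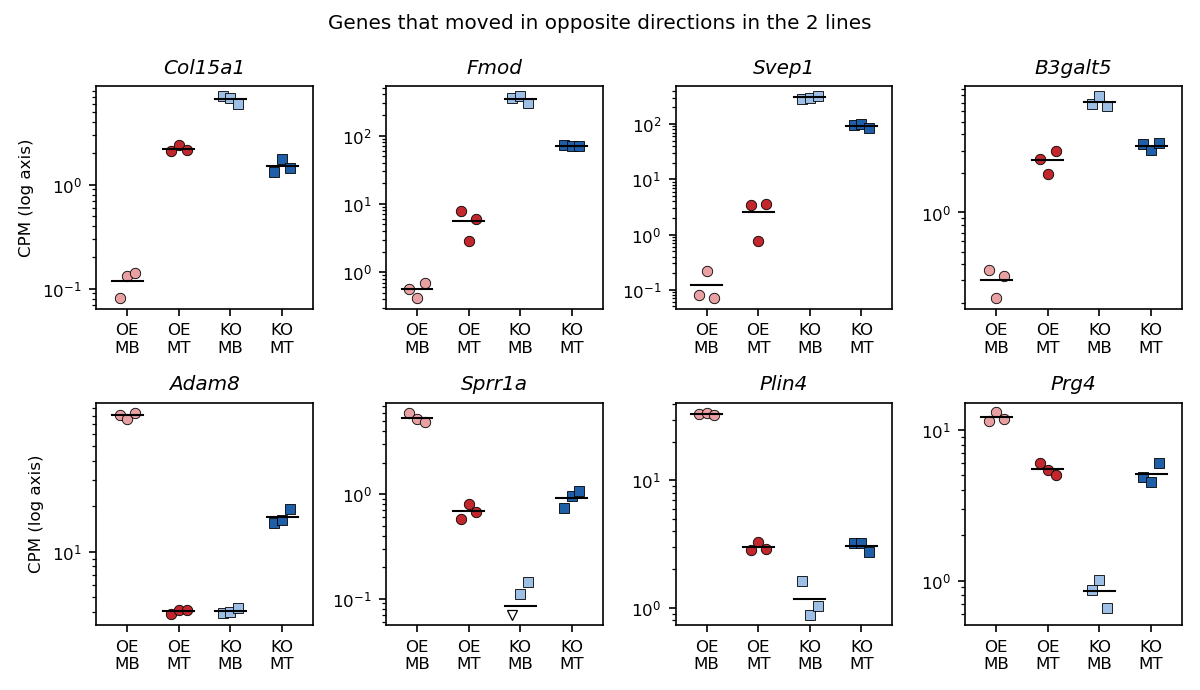
Levels in CPM (log axes) of 8 genes that rose in one line and fell in the other, with symbols and group names as in the plot of muscle and cell cycle genes, and open triangles for libraries under 0.07 CPM. The upper genes are lowest in overexpressor (OE) myoblasts (MB) and highest in knockout (KO) myoblasts; the lower genes are highest in overexpressor myoblasts and fall there, while they rise in the knockout.

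Beyond the lists, the genes with the highest differences included Pgm5, Ankrd2, Klhl13 and Dsg3. Pgm5, a relative of phosphoglucomutase found at muscle adhesion sites, rose from 0.201, 0.0872 and 0.28 CPM to 312, 269 and 319 CPM in the overexpressor and from 51.6, 69 and 53.5 CPM to 315, 323 and 334 CPM in the knockout (8.14 ± 0.25, adjusted p = 1.01e-09). Its myotube ranges overlapped. Ankrd2, a muscle ankyrin repeat protein that responds to stretch, rose from 0.161, 0.153 and 0.257 CPM to 110, 112 and 88 CPM in the overexpressor and from 7.55, 14.4 and 10 CPM to 39.7, 41.1 and 48.2 CPM in the knockout (7.07 ± 0.38, adjusted p = 1.32e-07). Klhl13, a ubiquitin ligase adaptor, was at 3 counts or fewer in overexpressor myoblasts, with a difference of at least 6.60. Dsg3, a desmosomal cadherin typical of stratified epithelium, was low in both myoblast groups and in knockout myotubes (0.0217 to 0.147 CPM) and at 9.24, 10.3 and 13.3 CPM in overexpressor myotubes (6.48 ± 0.81, adjusted p = 5.24e-05).

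The 12 lowest differences also held Krt19, Krt13, Gpnmb and Pthlh. Krt19, an epithelial keratin, fell from 77.5, 70 and 72.1 CPM to 4.6, 4.9 and 4.03 CPM in the overexpressor and stayed between 0.842 and 1.75 CPM in the 6 knockout libraries (-4.30 ± 0.30, adjusted p = 4.41e-07). Krt13, another keratin, fell from 23.3, 20.3 and 18.9 CPM to 0.254, 0.0881 and 0.322 CPM in the overexpressor and from 1.28, 1.16 and 1.2 CPM to 0.258, 0.354 and 0.4 CPM in the knockout (-4.72 ± 0.42, adjusted p = 3.4e-06). Gpnmb, a transmembrane glycoprotein, fell from 7.21, 6.49 and 6.67 CPM to 0.328, 0.742 and 0.294 CPM in the overexpressor and rose from 4.03, 4.36 and 3.81 CPM to 6.63, 6.74 and 7.27 CPM in the knockout (-4.63 ± 0.33, adjusted p = 4.64e-07). Pthlh, a parathyroid hormone-related peptide, differed by -4.79 (adjusted p = 5.6e-08).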

How the data were processed

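RNA from 12 libraries (3 replicates of each stage in each line) was analysed. The members of the comparison and the 34 gene lists were chosen with earlier results of these data known. The authors deposited raw counts per Ensembl mouse gene, 1 column per library, and log2-like variance-stabilised values of the same libraries; the scale of the latter was read from the values. Per the submitters' processing notes, STAR 2.7.9a, featureCounts of Subread 2.0.3, FastQC 0.11.7, DESeq2 1.32.0 and mm10 were used, with their roles and settings not given in the sources used here. TRIzol was used for RNA, per the labels' protocols. Use of strand was not given, so overlapping genes are uncertain.

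Gene IDs were matched to GENCODE M21 on GRCm38 (55104 of 55450); the 346 unmatched IDs carried 0.0361% of counts and stayed in the tests. The test of the counts was that of edgeR 4.0.16, run in R 4.3.3 (TMM, filterByExpr by group, robust quasi-likelihood), with 1 coefficient per group, 8 residual degrees of freedom, and 5 contrasts; adjusted p-values (Benjamini-Hochberg over 17272 genes, threshold 0.05) are from this test throughout, and standard errors are the log2 change divided by the square root of F. The procedure was tested on simulated data. CPM used TMM-scaled library sizes. A group with 3 counts or fewer in each library was at the floor: folds are bounds against the highest floor of its libraries, and no fold is given where the means of both stages of a line were at or under it. The correlations of same-letter replicates' deviations between groups, -0.387 to 0.263 with 1 of 18 above 0.1, did not pair the samples. Principal components used the deposited log2-like values.

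Named genes were the 12 highest and 12 lowest differences that kept sign and call when each library was left out and reached 5 CPM in a group, the 2 highest and 2 lowest called genes of each list at 5 CPM, the 6 largest opposed responses each way at 2-fold or more, and the fixed genes Ezh2, Ppargc1a, Cdkn1a, Myog, Myod1, Mymk, Myh3, Ckm, Rtl1, Mirg, Rian and Meg3. Not all of them are described. Other list members were named after their values were seen (among them Acta1, Ttn, Mymx, Mylk2, Atp2a2, Chrna1, Acta2, Mki67, Top2a and the genes whose promoters are shown). There were 21 alternatives: DESeq2 size factors, library totals, no filter and a stricter filter on low counts (1 CPM in 3 libraries), the Wald test of DESeq2 1.42.0, limma 3.58.1 on the deposited values, all 18 libraries, dispersions without robust estimation, a replicate block, and each library left out.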

Additional observations from a re-analysis of the deposited data

Results flagged for a closer look

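The test of the difference itself called 7532 genes, and the genes named here passed it with opposed responses in the 2 lines. Col15a1 (6.35), Svep1 (6.07), Fmod (5.58) and B3galt5 (4.16) rose in the overexpressor and fell in the knockout. Eva1a did so from 0 counts in overexpressor myoblasts to 0.373, 0.289 and 0.196 CPM, with a difference of at least 3.92. Adam8 (-6.40), Sprr1a (-6.31), Plin4 (-4.87), Prg4 (-3.74), Ccdc3 (-3.30) and Adgrf5 (-2.44) fell in the overexpressor and rose in the knockout.

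Svep1, a large secreted adhesion protein, was at 0.0805, 0.218 and 0.07 CPM in overexpressor myoblasts and 3.45, 0.755 and 3.62 CPM in their myotubes, against 288, 298 and 319 CPM and 94.5, 101 and 83.1 CPM in the knockout. B3galt5, a galactosyltransferase, had 2.6, 1.99 and 2.96 CPM in overexpressor and 3.35, 3.03 and 3.43 CPM in knockout myotubes, close to each other but not overlapping. Prg4, the joint lubricant lubricin, ended at overlapping myotube levels, after 11.5, 13.1 and 11.9 CPM in overexpressor and 0.868, 1.01 and 0.662 CPM in knockout myoblasts. Ccdc3 rose in the knockout from 1.24, 1.27 and 1.18 CPM to 6.24, 5.83 and 5.79 CPM, and Adgrf5 from 1.84, 2.22 and 2.33 CPM to 5.71, 5.78 and 4.55 CPM.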

How the results depend on the processing

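The number of genes called in the difference stayed within 1.5 times the 7532 under all 21 alternatives, from 6076 (without overexpressor myoblast replicate A) to 8370 (all 18 libraries). Leaving out 1 library gave 6076 to 8121 calls; without overexpressor myotube replicate C there were 6769, of which 6552 were shared. The counts of the other 4 contrasts also stayed within 1.5 times. The share of higher calls was 61.3% with library totals, against 3763 of 7532; for the knockout response it was 45.8%, 34.0% with library totals and 53.3% with DESeq2 size factors. Of 129 named genes called, 117 kept call and direction in every alternative, 12 lost the call in at least 1, and 0 reversed. The letters A, B and C carried no pairing that the labels state or the correlations showed; a replicate block gave 6414 calls, 6395 of them shared. Where an overexpressor myoblast group was at the floor, depth limits the value to a bound. Left-out libraries leave a group of 2, whose spread is assumed to be that of the other groups. The test took 1 spread per gene for all 4 groups, so its standard errors may be too small in the more variable groups. The coefficient of variation between replicates was 11.5% in overexpressor myoblasts, 19.3% in overexpressor myotubes, 4.26% in knockout myoblasts and 12.5% in knockout myotubes.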

Other observations

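Of 534 lincRNA genes, 123 were higher and 29 lower in the difference (28.5% called, beside 43.6% of all genes; median 0.54), and of 507 antisense genes 93 were higher and 26 lower (median 0.28), although antisense counts cannot be told apart from their partners where strand was not used. Processed transcripts (59 higher, 13 lower) and sense intronic genes (9 and 2) leaned the same way, while processed pseudogenes had a median of -0.0054. The median over all genes also moved with the filter on low counts, to 0.14 without it and 0.019 with the stricter one. Of 13361 protein-coding genes, 3161 were higher and 3486 lower (49.7% called, median 0.017). Among protein-coding genes the median exonic length was 4991 bases for higher, 4275 for lower and 4250 for genes not called.

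Among genes that reached 5 CPM in another group, at the floor in overexpressor myoblasts alone were 58 genes. Another 4 were at the floor in knockout myoblasts alone, 6 in knockout myotubes alone and 6 in the myoblasts of both lines.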
